A study of Mus musculus with 4 samples.

Results

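Lymphoid lineage genes were followed in hematopoietic stem and progenitor cells (HSPCs) after deletion of Chaf1b, the gene for a subunit of the histone chaperone CAF-1, which places histones on newly made DNA. The set comprises 10 genes (Ebf1, Pax5, Cd79a, Cd79b, Vpreb1, Dntt, Rag1, Il7r, Cd3e and Gata3) of the 43629 gene identifiers in the count tables, chosen by name as genes of B and T cells and their precursors and matched by mouse symbol. CD117+ cells of C57Bl/6 mice with both Chaf1b alleles floxed (fl/fl) were spinfected with the MIGR1 retrovirus, either empty (MIGR1 control, 2 libraries) or carrying Cre recombinase (Chaf1b-deleted, 2 libraries), and the eGFP+ cells sorted at 48 h were used for ribosomal RNA-depleted total RNA sequencing. All 4 cultures held SCF, IL-3, IL-6 and low density lipoprotein, and the listed supplements include neither IL-7 nor Flt3 ligand. The controls received no Cre, so the effects of Cre expression and of the loss of Chaf1b cannot be told apart. The sources used here do not say whether libraries came from separate animals, so p-values measure only the spread between these libraries.

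Lymphoid cells arise from multipotent progenitors that first express Flt3 and then the IL-7 receptor. In B cell precursors, E proteins, Ebf1 and Pax5 switch on the genes of the pre-B cell receptor, while Rag and terminal transferase proteins assemble and diversify antigen receptor genes. T cell commitment takes place in the thymus under Notch signals and involves Gata3 and the CD3 chains. SCF, IL-3 and IL-6 support the growth of myeloid cells and progenitors, and the question addressed here was whether lymphoid genes appear in that setting once Chaf1b is deleted.

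The libraries held 22736626 and 25409926 counts on genes for the controls and 23539015 and 18468637 in the Chaf1b-deleted libraries. Counts are given below as CPM, the counts per 1000000 reads counted on genes in that library, and 3 counts, the most that a listed 0 allows, correspond to between 0.118 and 0.162 CPM. Chaf1b itself was at 80.3 and 57.9 CPM in the controls against 16.1 and 17.9 CPM after deletion, and fell by 2.01 ± 0.25 on the log2 scale (SE, adjusted p = 0.0330, edgeR quasi-likelihood test). One Chaf1b-deleted library, replicate 1, stood apart from the other 3. Xist, expressed from the inactive X chromosome, was at 336 CPM there against 1.14 to 1.30 CPM elsewhere, and the 4 Y-linked genes summed to 0.127 CPM against 306 to 324 CPM. This is the pattern of female cells in that library and of male cells in the others, so sex is mixed within the Chaf1b-deleted group. The 25 interferon-stimulated genes summed to 3310 CPM in that library, 630 CPM in Chaf1b-deleted replicate 2, and 493 and 522 CPM in the controls. In 15 of the 25 both deleted libraries were above both controls, where the share over all genes tested was 21.4%. None of the 25 interferon-stimulated and 4 Y-linked genes passed the threshold for a call given below. Over all genes tested, 0.37% were called higher and 0.00606% lower. An unadjusted p under 0.05 was reached by 22 interferon-stimulated and 0 Y-linked genes. Over all genes tested, 9.15% reached it with a higher value and 3.1% with a lower value. The median log2 fold change of the interferon-stimulated genes was 2.68. Without a filter on low counts, 24 interferon-stimulated and 4 Y-linked genes passed the threshold. In that fit 808 of all genes were called higher (2.57%) and 79 lower. The interferon-stimulated genes with the lowest p were Oasl2 (log2 fold change 3.85, adjusted p = 0.178), Oas2 (3.01, adjusted p = 0.185) and Oas3 (2.59, adjusted p = 0.201), and the Y-linked ones were Kdm5d (-1.27, adjusted p = 0.786), Uty (-1.0, adjusted p = 0.829) and Eif2s3y (-1.08, adjusted p = 0.830). Control replicate 1 stood apart in another way, with counts on 40.6% of 884 olfactory receptor genes, which blood cells should not express, against 3.96% to 12.4% in the other libraries. Kit, which encodes the CD117 used to enrich the cells, and Cd34, another progenitor marker, were present in all 4 libraries at 95.6 to 124 CPM and 76.9 to 134 CPM.

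The 250 bases before the RefSeq transcription start (GRCm38.p6) are shown for Dntt, Vpreb1 and Il7r, the 3 members whose counting intervals were apart between the groups, and for Cd79a and Rag1, whose windows hold more than 1 match to lymphoid factor motifs. Capitals mark matches on either strand to CAGGTG (an E-box, bound by E proteins), GGAAGT (ETS factors) and TGTGGT (RUNX factors). No 2 matches overlap in these windows.
Dntt: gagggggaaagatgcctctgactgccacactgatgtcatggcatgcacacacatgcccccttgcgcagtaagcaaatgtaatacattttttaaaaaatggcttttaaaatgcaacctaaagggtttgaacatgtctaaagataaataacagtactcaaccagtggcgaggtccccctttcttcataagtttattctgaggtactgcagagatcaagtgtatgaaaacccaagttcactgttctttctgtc
Vpreb1: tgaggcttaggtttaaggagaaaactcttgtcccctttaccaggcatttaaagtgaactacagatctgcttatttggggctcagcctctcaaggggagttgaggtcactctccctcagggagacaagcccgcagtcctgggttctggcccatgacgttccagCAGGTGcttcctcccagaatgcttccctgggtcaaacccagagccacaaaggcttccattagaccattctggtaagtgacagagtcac
Il7r: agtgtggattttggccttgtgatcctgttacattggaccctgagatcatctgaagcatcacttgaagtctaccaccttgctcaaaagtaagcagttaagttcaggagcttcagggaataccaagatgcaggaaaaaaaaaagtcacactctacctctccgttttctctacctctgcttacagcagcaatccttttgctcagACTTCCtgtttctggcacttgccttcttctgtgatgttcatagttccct
Cd79a: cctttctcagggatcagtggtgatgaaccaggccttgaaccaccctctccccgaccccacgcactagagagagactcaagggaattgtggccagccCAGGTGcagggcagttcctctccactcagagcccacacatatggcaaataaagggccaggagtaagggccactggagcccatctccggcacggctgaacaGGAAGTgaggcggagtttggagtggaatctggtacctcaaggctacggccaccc
Rag1: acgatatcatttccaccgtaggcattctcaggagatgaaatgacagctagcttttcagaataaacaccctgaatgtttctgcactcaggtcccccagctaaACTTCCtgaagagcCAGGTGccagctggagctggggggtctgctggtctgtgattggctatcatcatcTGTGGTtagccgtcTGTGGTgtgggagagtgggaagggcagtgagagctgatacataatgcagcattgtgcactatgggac

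These windows lie at chr19:41029025-41029274 (+ strand, Dntt), chr16:16869256-16869505 (- strand, Vpreb1), chr15:9529877-9530126 (- strand, Il7r), chr7:24897247-24897496 (+ strand, Cd79a) and chr2:101649533-101649782 (- strand, Rag1). Vpreb1 has an E-box that starts 88 bases before the transcription start, Il7r has 1 ETS match, and Cd79a has an E-box and an ETS match. Rag1 has an E-box, an ETS match and 2 RUNX matches, while the Dntt window holds none of the 3 motifs. Of the 9 members found in the RefSeq promoter table, 3 had an E-box, 5 an ETS match and 2 a RUNX match. A member was counted if any of its windows matched, and the RUNX and ETS matches of Ebf1 lie in different windows. Among 32536 RefSeq promoter windows of the same length, the shares with a match were 17.3% for the E-box, 19.8% for ETS and 14% for RUNX. These shares are per window, so they are not on the same unit as the counts of members. These matches describe the letters in the windows only.

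In 9 of the 10 members, both Chaf1b-deleted libraries were above both controls, against a background of 21.4% of the 16500 genes tested. The exception was Cd3e. The summed CPM of the 10 genes was 22.5 and 30.8 in the controls against 52.2 and 44.9 after deletion. No member passed the threshold of a 1.5-fold change with an adjusted p under 0.05 in edgeR's quasi-likelihood test (0 of 9 tested, where 0.37% of all genes were called higher and 0.00606% lower). An unadjusted p under 0.05 was reached by 3 of 9, all with higher values after deletion (Dntt, Vpreb1 and Il7r), where the background was 9.15% for higher and 3.1% for lower genes. The exact test and the likelihood ratio test of edgeR and DESeq2 each called 1 member, Dntt, with backgrounds of 3.14%, 3.53% and 2.86% called higher. Without a filter on low counts 2 were called, Dntt and Il7r, where 2.57% of genes were called higher. The median log2 fold change of the 9 tested members was 0.93, and that of all genes tested was -0.03. Gata3 passed the filter only with the help of the deleted libraries, where it was higher, and Cd3e was removed by it. The median was 0.92 with at least 10 counts in every library, which removed Gata3 also, and 0.94 without a filter, which kept all 10.

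**Figure D1:**
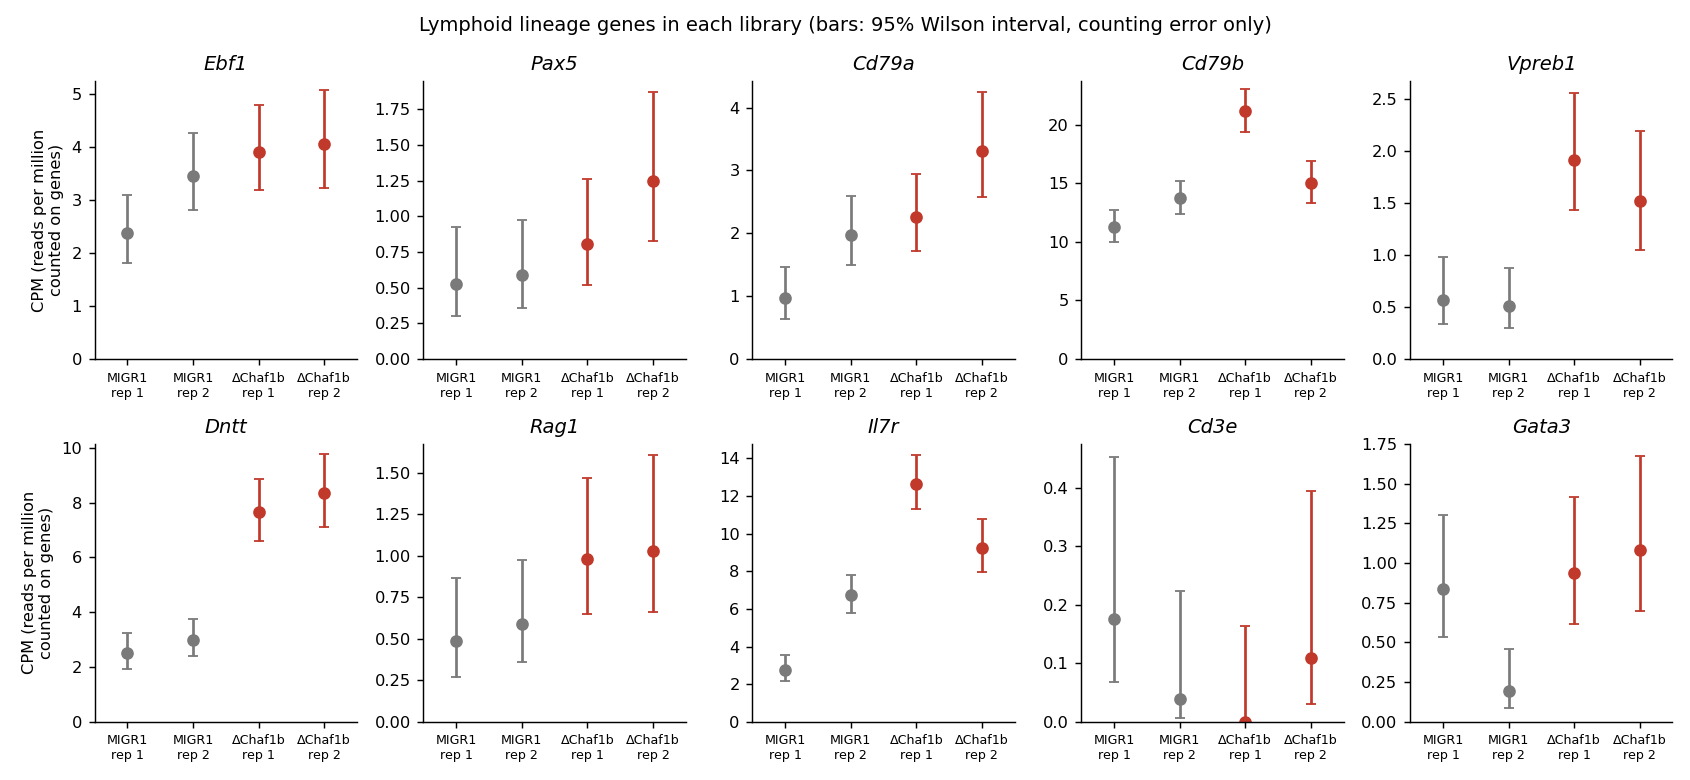
CPM of each of the 10 lymphoid genes in the 4 libraries, with grey points for MIGR1 and red points for Chaf1b deletion (ΔChaf1b), on linear axes that start at 0 and differ between panels. Bars are 95% Wilson intervals for counting error, and those of the 2 groups are apart for Vpreb1, Dntt and Il7r.

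Il7r encodes the alpha chain of the IL-7 receptor, the main survival and growth signal of early lymphoid cells. It was at 2.77 and 6.73 CPM in the controls (63 and 171 counts) and at 12.7 and 9.26 CPM after deletion (298 and 171 counts). The groups did not overlap, but the controls differed 2.43-fold between themselves. The log2 fold change of the gene (ENSMUSG00000003882, NCBIM37 chr15:9435916-9459631) was 1.25 ± 0.48 (SE, adjusted p = 0.339, quasi-likelihood test). Its size depended on the control used, being 2.01 without control replicate 2 (adjusted p = 0.0326, past the threshold, with 1.92% of genes called higher in that fit) and 0.75 without control replicate 1 (adjusted p = 0.959).

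Ebf1 and Pax5 are the transcription factors that specify and then commit B cell precursors. Ebf1 (ENSMUSG00000057098, NCBIM37 chr11:44430819-44821593) was at 2.38 and 3.46 CPM in the controls against 3.91 and 4.06 CPM after deletion. Pax5 (ENSMUSG00000014030, NCBIM37 chr4:44544017-44724318) was at 0.528 and 0.590 CPM and then at 0.807 and 1.25 CPM, from 12, 15, 19 and 23 counts. For both genes the deleted libraries lay above the controls, yet the counting intervals of the groups overlapped. The log2 fold changes were 0.48 ± 0.41 for Ebf1 (SE, adjusted p = 0.714) and 0.87 ± 0.57 for Pax5 (SE, adjusted p = 0.605, both by the quasi-likelihood test).

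Vpreb1 encodes a chain of the surrogate light chain, which pairs with the immunoglobulin heavy chain in the pre-B cell receptor. It was at 0.572 and 0.512 CPM in the controls, from 13 counts in each. In the Chaf1b-deleted libraries it was at 1.91 and 1.52 CPM, from 45 and 28 counts. The groups did not overlap, and the mean was 3.16-fold that of the controls. The log2 fold change was 1.69 ± 0.55 (SE, adjusted p = 0.268, quasi-likelihood test), and ranged from 1.40 to 1.95 with each library left out in turn. The counts of this gene (ENSMUSG00000059305, NCBIM37 chr16:16868495-16870936) are less certain than those of genes with unique exons. Of its 31-base exonic stretches, 41.2% occur elsewhere in the genome, and its paralog Vpreb2 was at 3 and 3 counts in the controls against 9 and 3 after deletion. Top3b, on the opposite strand, shares 108 bases of exon with it and was at 131 and 120 CPM in the controls against 92.9 and 104 CPM after deletion. The strand setting of the counting is not given in the sources used here, so reads of the pair cannot be told apart in those bases.

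Cd79a and Cd79b encode the signalling chains that carry the B cell receptor and its precursor. Cd79a (ENSMUSG00000003379, NCBIM37 chr7:25682400-25687216) was at 0.968 and 1.97 CPM in the controls against 2.25 and 3.30 CPM after deletion. Cd79b (ENSMUSG00000040592, NCBIM37 chr11:106172655-106176076) was at 11.3 and 13.7 CPM in the controls against 21.1 and 15 CPM after deletion. In each of these genes the lower deleted library was only slightly above the higher control, 2.25 against 1.97 CPM for Cd79a and 15 against 13.7 CPM for Cd79b. The log2 fold change of Cd79a was 0.93 ± 0.52 (SE, adjusted p = 0.538) and that of Cd79b was 0.58 ± 0.31 (SE, adjusted p = 0.521, quasi-likelihood test). Without Chaf1b-deleted replicate 1, that of Cd79b was 0.18. The exons of Cd79a share 31.1% of their 31-base stretches with other places in the genome, and those of Cd79b share none.

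Dntt encodes terminal transferase, which adds untemplated bases where antigen receptor segments are joined, and is one of the earliest transcripts of the lymphoid line. Its gene (ENSMUSG00000025014, NCBIM37 chr19:41103765-41134013) was at 2.51 and 2.99 CPM in the controls, from 57 and 76 counts. After Chaf1b deletion it was at 7.65 and 8.34 CPM, from 180 and 154 counts. Both deleted libraries were well above both controls, and the libraries within a group were within 1.19-fold of each other. The log2 fold change was 1.56 ± 0.36 (SE, adjusted p = 0.142 in the quasi-likelihood test). The adjusted p was 0.0288 in the exact test, 0.0224 in the likelihood ratio test and 0.0102 in DESeq2. Each library left out in turn gave log2 fold changes from 1.44 to 1.68. None of the 31-base stretches of its exons occurs elsewhere in the genome.

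Rag1 encodes a subunit of the recombinase that cuts antigen receptor genes. It was at 0.484 and 0.590 CPM in the controls against 0.977 and 1.03 CPM after deletion, from 11, 15, 23 and 19 counts. The groups did not overlap, and the log2 fold change was 0.92 ± 0.57 (SE, adjusted p = 0.578, quasi-likelihood test). The gene (ENSMUSG00000061311, NCBIM37 chr2:101478439-101489658) shares 80 bases of exon with B230118H07Rik on the same strand, which was at 11.8 and 12.9 CPM in the controls against 15.2 and 13.2 CPM after deletion. Rag2, the partner subunit, had 9 and 8 counts in the controls against 9 and 4 after deletion, with overlapping groups, and did not pass the filter.

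Gata3 is needed for T cell commitment and is also expressed in other blood lineages. It was at 0.836 and 0.197 CPM in the controls against 0.935 and 1.08 CPM after deletion, from 19, 5, 22 and 20 counts. The groups did not overlap, but control replicate 1 was closer to the deleted libraries than to the other control. The log2 fold change of the gene (ENSMUSG00000015619, NCBIM37 chr2:9778705-9811661) was 0.99 ± 0.75 (SE, adjusted p = 0.661, quasi-likelihood test), and was 0.27 without control replicate 2 and 2.35 without control replicate 1. The 10 mast cell and basophil genes, all detected in every library, summed to 1329 and 907 CPM in the controls against 1217 and 1263 CPM after deletion, and their part in the values of Gata3 was not tested.

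Cd3e encodes a chain of the CD3 complex that carries the T cell receptor. It had 4 and 1 counts in the controls against 0 and 2 after deletion. The groups overlapped at the limit of detection, and the gene (ENSMUSG00000032093, NCBIM37 chr9:44806826-44817673) did not pass the filter. A count of 0 in Chaf1b-deleted replicate 1 allows up to 0.127 CPM.

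Levels can be compared between genes only per length of exon, here as CPM per kilobase of exon (RPKM). Cd79b was the most abundant member on this scale, with mean levels of 8.72 RPKM in the controls and 12.6 RPKM after deletion. Il7r was at means of 1.48 and 3.42 RPKM, Dntt at 1.29 and 3.76 RPKM and Cd79a at 1.01 and 1.91 RPKM, and the ranges of these 3 overlapped in the controls. Vpreb1 followed at means of 0.487 and 1.54 RPKM. The other 5 members were under 1 RPKM in all 4 libraries. Their control means ran from Ebf1 (0.299 RPKM) through Pax5 (0.163), Gata3 (0.130) and Rag1 (0.0813) to Cd3e (0.0750 RPKM), and the libraries of the last 4 overlapped with those of a neighbour in that order. Olfactory receptor genes, a measure of background, averaged between 0.00555 and 0.0281 RPKM, and 95% of them were at or under 0.0937 RPKM in control replicate 1 and 0.0415 RPKM in control replicate 2. Rag1 was under this limit in control replicate 1 (0.0732 RPKM), and Cd3e in control replicate 2 (0.0274 RPKM).

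**Figure D2:**
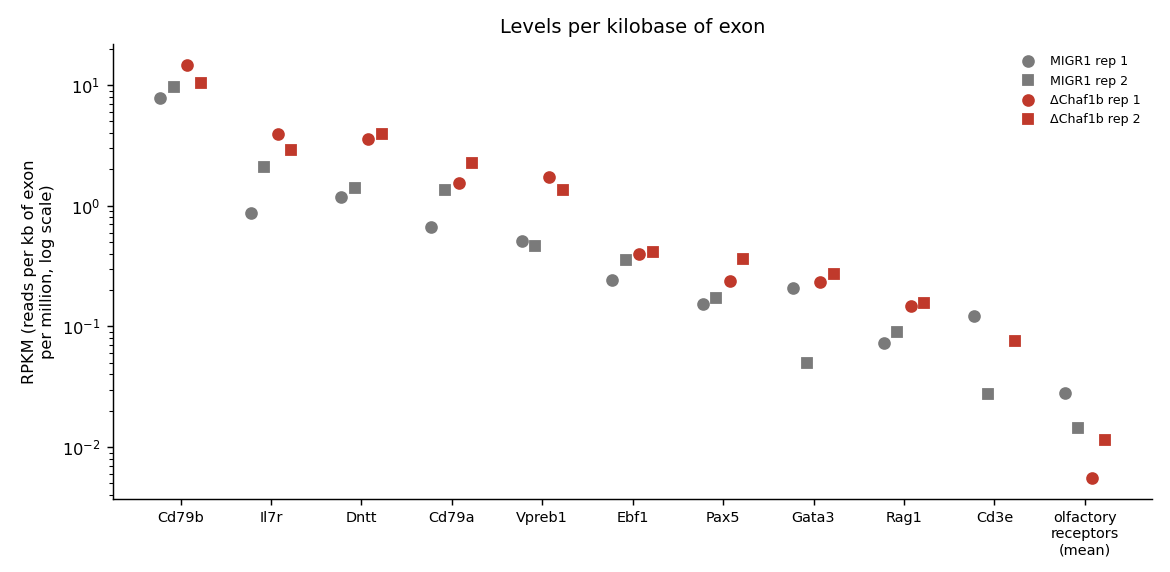
RPKM (log scale) of the 10 lymphoid genes in order of their control means, beside the mean of 884 olfactory receptor genes. Grey symbols are MIGR1 and red symbols ΔChaf1b libraries, with circles for replicate 1 and squares for replicate 2, and Cd3e in ΔChaf1b replicate 1, at 0, is not drawn.

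The spread between libraries of the same group was itself large for several members. Between the controls, replicate 2 was higher than replicate 1 in 7 of the 10 genes and lower in 3 (Vpreb1, Cd3e and Gata3), and the ratio reached 2.43 for Il7r and 2.03 for Cd79a. Between the deleted libraries, the ratio of replicate 2 to replicate 1 ranged from 0.71 for Cd79b to 1.54 for Pax5 among the 9 members with counts in both. Chaf1b-deleted replicate 2 did not share the Xist and Y-linked pattern of replicate 1. Its interferon-stimulated genes summed to 630 CPM against 3310 CPM in replicate 1. Yet in 15 of these 25 genes both deleted libraries were above both controls, beside 21.4% of all genes tested. Any link of this to the values of the members was not tested. Chaf1b-deleted replicate 2 was above both controls in 9 of the 10 members, which is already part of the count given above and no separate result. Without replicate 1, all 9 tested members kept a log2 fold change above 0, a sign that the same count fixes. In that fit Dntt was at 1.52, Vpreb1 at 1.40 and Il7r at 0.88. With each library left out in turn, the log2 fold change ranged from 0.23 to 0.76 for Ebf1, from 0.66 to 1.07 for Pax5, from 0.51 to 1.51 for Cd79a, from 0.18 to 0.90 for Cd79b and from 0.79 to 1.05 for Rag1. In RNA from a sorted bulk population, more cells of a type and more RNA per cell cannot be told apart.

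**Figure D3:**
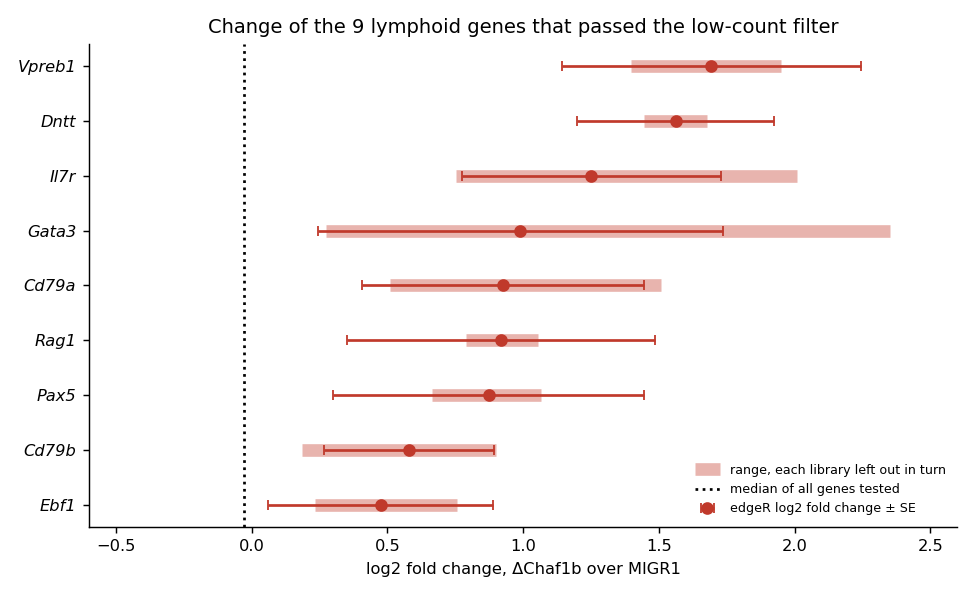
Log2 fold change (Chaf1b-deleted over MIGR1) of the 9 tested lymphoid genes, as points with the SE of the edgeR fit, over pale bars for the range with each library left out in turn. All 9 lie to the right of the dotted median of all genes tested (-0.03), and Gata3 and Il7r have the widest ranges.

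Other genes of B cells were counted for comparison. In 18 of the 25 matched both Chaf1b-deleted libraries were above both controls and in 1 both were under them, where the shares over all genes tested were 21.4% and 22.9%. Of 24 tested B lineage genes, 0 passed the threshold, where 0.37% of all genes tested were called higher. An unadjusted p under 0.05 was reached by 8 with a higher value and by 0 with a lower value. Over all genes tested these shares were 9.15% and 3.1%. The median log2 fold change of the B lineage genes was 0.91. Fcrla, Ms4a1 and Vpreb3 passed the filter only with the help of the deleted libraries, where they were higher. Their log2 fold changes were 1.64, 1.30 and 1.28. Fcrla was among the 8 genes, and each of them counts towards the median. The 3 B lineage genes with the lowest p were Cd38, a surface enzyme that makes cyclic ADP-ribose, Bank1, an adaptor of B cell receptor signalling, and Igll1, the other chain of the surrogate light chain. Cd38 was at 11.5 and 13.6 CPM in the controls against 37.1 and 33.0 CPM after deletion (log2 fold change 1.52, adjusted p = 0.0692, quasi-likelihood test). Igll1, which pairs with Vpreb1, was at 1.76 and 2.56 CPM and then at 6.67 and 5.20 CPM (1.5, adjusted p = 0.219). Bank1 was at 5.94 and 6.73 CPM and then at 13.6 and 14.2 CPM (1.16, adjusted p = 0.172).

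Genes of the earliest lymphoid steps had both deleted libraries above both controls in 10 of 22 cases and under both in 2 (Tcf12 and Foxp1, named after their values were seen), beside the same 21.4% and 22.9% of all genes. Among the 21 tested, 1 passed the threshold, where 0.37% of all genes tested were called higher. An unadjusted p under 0.05 was reached by 7, all with higher values, beside 9.15% of all genes tested. The median log2 fold change was 0.30. The 1 gene past the threshold was Flt3, the receptor tyrosine kinase of multipotent and lymphoid progenitors. It was at 4.66 and 5.31 CPM in the controls against 19.3 and 22.7 CPM after deletion, and rose by 2.09 ± 0.28 on the log2 scale (SE, adjusted p = 0.0383, quasi-likelihood test). The adjusted p of Flt3 was 0.0503 with DESeq2's size factors, 0.0585 with library size only and 0.0960 with the replicate number as a block. Ccr7, a chemokine receptor that guides lymphocytes and dendritic cells, was at 1.67 and 4.13 CPM and then at 35 and 20.3 CPM (3.30, adjusted p = 0.0555). Notch1, the receptor that directs T cell fate, had a log2 fold change of 0.74 (adjusted p = 0.252), and Sox4, a transcription factor of progenitors, one of 0.95 (adjusted p = 0.256).

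Of 26 genes on the T lineage list, 15 passed the filter and 0 passed the threshold, with a median log2 fold change of 0.21. Over all genes tested, 0.37% were called higher. Both deleted libraries were above both controls in 8 of the 26 (7 of the 15 tested) and under both in 0. The shares over all genes tested were 21.4% and 22.9%. An unadjusted p under 0.05 was reached by 3, all with higher values, beside 9.15% of all genes tested. These were Cd6, a T cell co-receptor (0.792 and 1.69 CPM, then 5.65 and 3.90 CPM), Tcf7, a transcription factor induced by Notch (2.24 and 2.83 CPM, then 4.38 and 9.15 CPM), and Lck, the kinase next to the T cell receptor (5.19 and 3.35 CPM, then 10.4 and 8.39 CPM). Their adjusted p were 0.193, 0.254 and 0.280 in the quasi-likelihood test. Of the defining genes, Cd8b1 had 0 counts in all 4 libraries, and Cd3g had 0, 1, 9 and 0 counts. Cd3d, another CD3 chain, was detected in every library, with 43 and 47 counts in the controls against 50 and 34 after deletion, and its groups overlapped. In the list of NK and innate lymphoid genes, 14 of 20 were tested and 0 passed the threshold, with a median of 0.48. Both deleted libraries were above both controls in 6 of the 20 (5 of the 14 tested) and under both in 1, beside the same shares. An unadjusted p under 0.05 was reached by 3, all with higher values, beside the same 9.15% of all genes. The 3 were Nfil3, needed for innate lymphoid cells (log2 fold change 0.72, adjusted p = 0.220), Il2rb, a chain of the IL-2 and IL-15 receptors (1.69, adjusted p = 0.287), and Eomes, a T-box factor of NK cells (1.83, adjusted p = 0.318, all by the quasi-likelihood test).

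**Figure D4:**
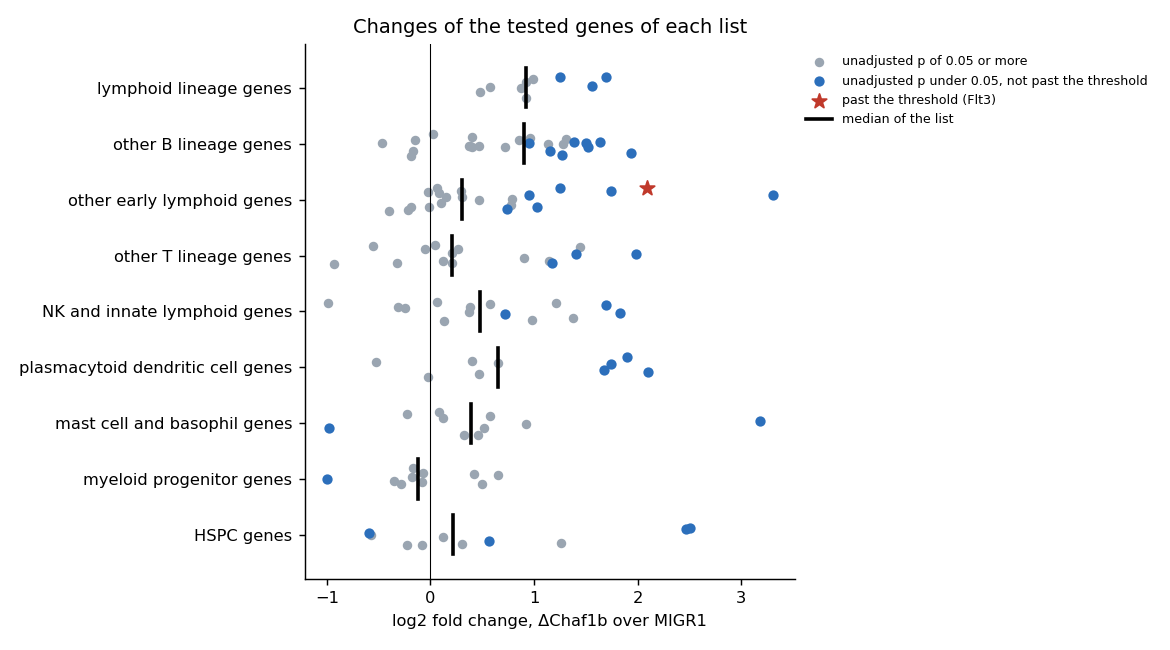
Log2 fold change (Chaf1b-deleted over MIGR1) of each tested gene, by list, with list medians as black lines, blue points for genes with an unadjusted p under 0.05 and a star for Flt3, the gene past the threshold. The medians of the lymphoid lineage genes (0.93) and the other B lineage genes (0.91) are the furthest to the right of the lists drawn, and the interferon-stimulated genes, with a median of 2.68, are not drawn.

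Genes that act with or against the members were also counted. Of 12 genes of IL-7 receptor signalling, 0 passed the threshold, and the median log2 fold change was 0.21. An unadjusted p under 0.05 was reached by 4, all with higher values. Over all genes tested, 9.15% reached it with a higher value and 3.1% with a lower value. The lowest p belonged to Socs1, a cytokine-induced inhibitor of JAK kinases (1.26, adjusted p = 0.203), Mcl1, a survival factor (0.75, adjusted p = 0.229), and Crlf2, which pairs with Il7r in the TSLP receptor (1.05, adjusted p = 0.238). A list of 9 genes held E protein inhibitors and transcription factors with roles in myeloid, erythroid or mast cells. Of these, 0 passed the threshold and 2 had an unadjusted p under 0.05, all with higher values, beside the same 9.15% of all genes. They were Cebpb, a myeloid transcription factor (1.12, adjusted p = 0.140), and Id1, which blocks E proteins (0.96, adjusted p = 0.206), while Gata1, an erythroid and mast cell factor, was at -0.38 (adjusted p = 0.660, quasi-likelihood test).

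Markers of other cells that can carry these transcripts were also counted. Plasmacytoid dendritic cells express Dntt and other lymphoid genes. Of 12 genes on their list, 9 were tested and 0 passed the threshold, with a median log2 fold change of 0.65. An unadjusted p under 0.05 was reached by 4, all with higher values, beside 9.15% of all genes tested. The 12 genes summed to 191 and 251 CPM in the controls against 317 and 232 CPM after deletion. The lowest p belonged to Ly6d (1.75, adjusted p = 0.292), Pacsin1 (2.10, adjusted p = 0.303) and Bst2 (1.90, adjusted p = 0.326), and Bst2 was at 154 CPM in Chaf1b-deleted replicate 1 against 22.9 to 28.9 CPM elsewhere. Some genes are on more than 1 list. Among them, Ly6d was also counted with the early lymphoid genes and Bst2 with the interferon-stimulated genes. In 4 of the 12 both deleted libraries were above both controls and in 2 under them, where the shares over all genes tested were 21.4% and 22.9%. Siglech, a defining marker of these cells, was at 0.792 and 0.197 CPM in the controls against 1.61 and 1.46 CPM after deletion. The part of such cells in the values of the members was not tested. Of 10 mast cell and basophil genes, 0 passed the threshold, and the lowest p belonged to Ms4a2 (-0.98, adjusted p = 0.136), Tpsb2 (3.18, adjusted p = 0.224) and Hdc (0.57, adjusted p = 0.451). Of 10 myeloid progenitor genes 0 passed it, with a median of -0.12, and Elane, the neutrophil elastase gene, was at -1.0 (adjusted p = 0.319), Itgam at 0.50 (adjusted p = 0.577) and Ly6c2 at 0.65 (adjusted p = 0.617). Of 10 HSPC genes 0 passed it, with a median of 0.21, and the lowest p belonged to Procr (2.47, adjusted p = 0.0706), Ly6a (2.5, adjusted p = 0.272) and Myb (-0.59, adjusted p = 0.313, quasi-likelihood test). An unadjusted p under 0.05 with a higher value was reached by 1 mast cell and basophil, 0 myeloid progenitor and 3 HSPC genes. In each of these lists, 1 gene reached it with a lower value. Over all genes tested, these shares were 9.15% and 3.1%, and 0.37% were called higher. In the same order of lists, both deleted libraries were above both controls in 2, 1 and 4 genes. They were under both controls in 1, 1 and 2 genes, where the shares over all genes tested were 21.4% and 22.9%.

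Antigen receptor transcripts gave a further view of the lymphoid program. Rearranged receptors join a variable segment to the constant region, whereas constant regions can also be transcribed before rearrangement. The heavy chain constant gene Ighm was at 27.4 and 41.3 CPM in the controls against 55.6 and 31.8 CPM after deletion, with overlapping groups (log2 fold change 0.40, adjusted p = 0.715, quasi-likelihood test). Against its 623, 1050, 1308 and 587 counts, the 25 named heavy chain variable segments together held 18, 37, 32 and 18. The kappa constant gene Igkc had 37 and 48 counts in the controls against 51 and 49 after deletion, beside 15, 20, 7 and 17 on 57 variable segments. The 2 beta chain constant genes of the T cell receptor held 3 and 3 counts in the controls against 7 and 5 after deletion, and the alpha chain constant gene held 2, 1, 4 and 6. The 3 gamma chain constant genes held far more, 442 and 364 counts in the controls against 372 and 414 after deletion, with overlapping groups, beside 12, 3, 3 and 2 on 7 gamma variable segments. Variable segments of the beta chain held more, 100, 68, 65 and 148 counts, of which Trbv13-2 alone gave 77, 19, 27 and 93. Only segments named in the annotation were counted.

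**Figure D5:**
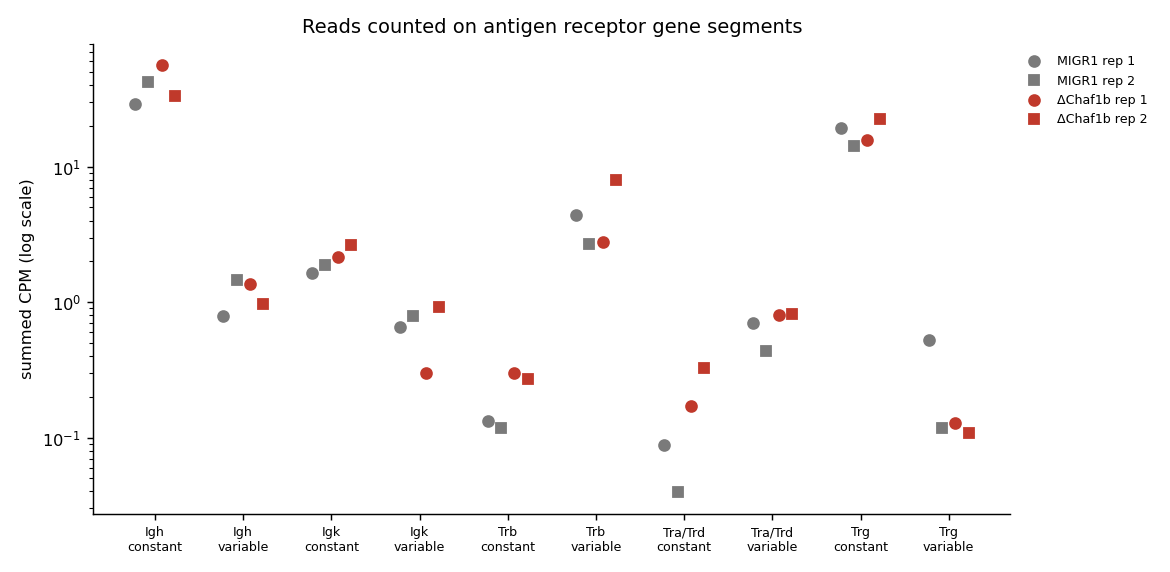
Summed CPM (log scale) of the constant and variable segments of the heavy chain (Igh), kappa (Igk) and T cell receptor (Trb, Tra/Trd, Trg) loci in each library, grey for MIGR1 and red for ΔChaf1b, with circles for replicate 1 and squares for replicate 2. Heavy chain constant reads (29.0 to 56.1 CPM) exceed heavy chain variable reads (0.792 to 1.46 CPM) in every library, and the groups overlap for both.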

How the data were processed

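RNA-seq of 4 HSPC libraries was used, 2 MIGR1 control and 2 Chaf1b-deleted. The authors mapped reads to mm9 with STAR and counted them per gene with HTSeq, and raw counts were deposited as 1 table per library. Annotation release and strand setting are not given in the sources used here. Of 43629 identifiers, 33068 were named from the NCBIM37 annotation, holding 96.9% to 98.4% of counts.

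The expression filter of edgeR (minimum count 10) kept 16500 genes. TMM-normalized counts were compared with glmQLFit and glmQLFTest (edgeR 4.0.16, limma 3.58.1, R 4.3.3), two-sided and without a covariate, with Benjamini-Hochberg adjustment over all genes tested. Genes with a change of at least 1.5-fold and an adjusted p under 0.05 were called. Intervals are 95% Wilson intervals and cover counting error only. In 5 simulated datasets (median 16296 genes), 82.0% of 4-fold and 97.6% of 16-fold changes were recovered, with 3.65% false calls. These datasets gave every gene the same dispersion (0.0763) and held no library that stood apart. They also held no change under 4-fold, so they do not give the power to call the members. Replicates differed by more than sampling noise, with chi-square over its degrees of freedom at 43.5 for the controls and 64.6 for the deleted libraries.

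The members and gene lists were chosen with earlier results of these data known. Of each list, the text names genes past the threshold and the 3 others with the lowest p, and further the paralogs and overlapping genes of members, with Chaf1b and Xist as checks. Rag2, Tcf12, Foxp1, Fcrla, Ms4a1, Vpreb3, Kit, Cd34, Cd8b1, Cd3d, Cd3g, Siglech and the receptor segments lie outside that rule. Alternatives were other scalings (DESeq2's size factors, library size), no filter or 10 counts in every library, other tests (exact, likelihood ratio, DESeq2 1.42.0), the replicate number as a block, other thresholds (2-fold with an adjusted p under 0.01, no fold), and leaving out single libraries.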

Additional observations from a re-analysis of the deposited data

How the results depend on the processing

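The 9 tested members had a log2 fold change above 0 under every alternative run that tested them. This sign follows from both deleted libraries lying above both controls, so it is no separate result. In the quasi-likelihood test, 47.5% of all genes tested were fitted above 0. A minimum of 10 counts in every library removed Gata3, and without a filter Cd3e was fitted at -1.0. The members whose groups did not overlap numbered 9 also with TMM-scaled CPM (22.3% of genes tested) and with DESeq2's size factors (22.1%), 2 scalings chosen after seeing the data. The number of members past the threshold was 0, and became 2 without a low-count filter (Dntt at 1.59, Il7r at 1.28) and 1 in the exact test, the likelihood ratio test and DESeq2 (Dntt at 1.56 in each). With each library left out in turn it ranged from 0 to 1, and Il7r ranged from 0.75 to 2.01 and Dntt from 1.44 to 1.68. Over all genes, 61 were called higher. This number was 27 with DESeq2's size factors, 30 with library size only, 808 without a filter, 3 with at least 10 counts in every library, 518 in the exact test, 583 in the likelihood ratio test, 472 in DESeq2, 14 with the replicate block, 0 at 2-fold with an adjusted p under 0.01, and from 125 to 331 with a library left out. Against 1 gene called lower, there were 79 without a filter, 0 with 10 counts in every library, 35, 40 and 34 in the exact test, likelihood ratio test and DESeq2, 0 with the block, 0 at 2-fold, and from 6 to 42 with a library left out. The lymphoid lists together held 1 called gene, against 0 with either other scaling, 8 without a filter, 0 with 10 counts in every library, 5, 6 and 7 in the exact test, likelihood ratio test and DESeq2, 0 with the block, 0 at 2-fold, and from 2 to 5 with a library left out. Apart from the filters and thresholds, which change by construction how many genes are tested or called, the cause was not tested.

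The labels do not say that same-numbered libraries share an animal, and Chaf1b-deleted replicate 1 differs from control replicate 1 in Xist and Y-linked genes. The deviations of same-numbered libraries correlated at 0.0133 over genes, and the numbers were not taken as pairs. With the replicate block, 0 members were past the threshold and 2 had an unadjusted p under 0.05. Fits without a library leave a group with 1 library, which is assumed to vary like the others. Pax5 and Rag1 rest on 11 to 23 counts per library, and the power to call changes of the size fitted for them was not tested.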
